A study of Saccharomyces cerevisiae with 12 samples.

Results

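The 5.8S rRNA and the ends of 18S and 25S rRNA were examined position by position along the 35S gene of Saccharomyces cerevisiae. The set holds all 158 positions of 5.8S and the first and last 30 nt of 18S and of 25S, 278 of the 6858 positions of the gene. Membership was set by place in the gene, with no cut on a measured value, although earlier results of these data were known. Position 2498 was named with the set as an example of 3′ end signal. The RNA positions came from NET-seq, native elongating transcript sequencing, in which RNA polymerase I (Pol I) is pulled down with its RNA, a linker is ligated to the RNA 3′ ends and each read marks the last nucleotide of an RNA. Cultures were given BMH-21, a small molecule that binds DNA and blocks Pol I transcription, or its vehicle.

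The groups were BMH-21-treated cultures (50 μM) and vehicle-treated cultures (sodium phosphate buffer), each harvested in a 2-min and in a 16-min experiment, with 3 libraries per treatment and time and 12 in all. Every culture was of 1 strain, in which the RPA135 subunit of Pol I carries HA and His tags and the deleted RPA190 gene is replaced by a plasmid copy, and was treated at an OD600 of 0.3. The 2 treatment times were separate experiments, so that time and experiment cannot be told apart. Values are RPM, the read ends at a position per 1000000 read ends of the library on the 35S gene. Positions are counted from the first nucleotide of that gene. They are shares of a library's signal, and a fall at a position and a rise elsewhere cannot be told apart. Depth over the gene lay between 1054374 and 10480384 reads per library, of which 6.62% to 9.24% fell on the 278 positions.

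Pol I makes one long precursor in which 18S, 5.8S and 25S rRNA are parted by internal transcribed spacers (ITS1 and ITS2) and flanked by external ones (ETS1 and ETS2). The mature ends are made from this precursor by endonucleases and trimming exonucleases. Citing earlier work, the study states that this processing begins during transcription. In yeast the endonuclease Nob1 makes the 3′ end of 18S, the exonuclease Rat1 trims to the 5′ ends of 5.8S and 25S, and the exosome with further exonucleases trims ITS2 back to the 3′ end of 5.8S. The study describes mature rRNA as an unavoidable contaminant of NET-seq libraries. In its control from a strain with untagged Pol I, it reports high signal over the rRNA genes and few reads in the spacers. It therefore relied on the spacers for nascent RNA, whereas all members here lie in the rRNA genes. The end of a finished rRNA and the end of an RNA still held by Pol I give the same read, so the 2 sources cannot be told apart at these positions.

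The sequences below are read from RefSeq's R64 assembly, on the minus strand of chromosome XII, and match the base listed at each position of the deposited values. They are shown because the low 5′ ends and the empty 3′ ends are described by them. In the first 3 lines, which run from 10 nt before each mature 5′ end to 30 nt after it, capitals mark the first 10 nt of the rRNA.
18S 5′ end, chrXII:466840-466879: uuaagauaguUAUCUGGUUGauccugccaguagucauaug
5.8S 5′ end, chrXII:464679-464718: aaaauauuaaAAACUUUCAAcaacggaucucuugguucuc
25S 5′ end, chrXII:464289-464328: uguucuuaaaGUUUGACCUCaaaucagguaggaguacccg
In the next 3 lines, which run from the last 30 nt of each rRNA to 10 nt beyond, capitals mark the positions at which none of the 12 libraries holds a read.
18S 3′ end, chrXII:465060-465099: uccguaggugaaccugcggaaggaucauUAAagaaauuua
5.8S 3′ end, chrXII:464541-464580: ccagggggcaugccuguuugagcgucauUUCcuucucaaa
25S 3′ end, chrXII:460913-460952: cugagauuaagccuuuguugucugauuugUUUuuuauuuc
In all of 5.8S, capitals mark the 16 positions with the highest mean RPM over the 12 libraries.
5.8S, chrXII:464551-464708: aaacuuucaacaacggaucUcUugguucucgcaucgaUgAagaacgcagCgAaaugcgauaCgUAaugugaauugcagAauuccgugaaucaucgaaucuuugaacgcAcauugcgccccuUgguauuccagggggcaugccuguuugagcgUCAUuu

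Some libraries stood apart at single positions, and this touches the 16-min values. In both 16-min libraries numbered 3, 1 of each treatment, 4 of the 246 members with a mean of at least 10 RPM lay more than 2-fold above the other 4 libraries of that time, and 0 lay more than 2-fold below them. Over the whole gene 0.251% of such positions lay above and 0.0335% below. The 16-min libraries of both treatments also held much of their signal at position 6399, inside 25S and not a member, with 5.47% to 7.19% of it in the BMH-21-treated and 2.50% to 5.38% in the vehicle-treated libraries. At 2 min its share was at most 0.460% in BMH-21-treated and 0.792% in vehicle-treated libraries.

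The signal was high beside the mature 3′ ends, while the positions at each end itself held no reads. The highest member was position 2498, beside the 3′ end of 18S, in 10 of the 12 libraries and position 2970 of 5.8S in both 16-min libraries numbered 3. Of the 278 members, 256 held at least 1 read in every library, 17 were at 0 in some libraries and 5 were at 0 in all 12. Those 5 are the last 2 nt of 18S (positions 2499 and 2500), the last 2 nt of 5.8S (3018 and 3019) and the last nt of 25S (6647). With the neighbouring spacer positions 2501, 3020, 6648 and 6649 they form 3 runs of 3 empty positions, 1 at each mature 3′ end. The whole gene has 10 positions at 0 in all libraries, and the only other one, position 3, lies in ETS1. The study does not say whether the positions of these runs were masked in processing. A gap made by processing and a lack of RNA ends there cannot be told apart. A count of 0 allows up to 0.286 to 2.85 RPM (3 reads) per library, for counting error only (position 2498, beside such a run, held at least 3032 RPM).

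Position 2498 (XII 465072), the third nucleotide from the 3′ end of 18S and the last before the empty run, held 6983, 5921 and 6694 RPM in BMH-21-treated libraries at 2 min, against 4074, 3806 and 4544 RPM in vehicle-treated libraries. The groups did not overlap, and the log2 fold change was 0.66 ± 0.14 (SE, adjusted p = 0.0184 by limma with Benjamini-Hochberg adjustment over the gene). At 16 min it held 5915, 6061 and 4023 RPM in BMH-21-treated libraries, against 5275, 5864 and 3032 RPM in vehicle-treated libraries. There the groups overlapped and the difference did not pass (0.21 ± 0.31, adjusted p = 0.783 by limma). This single position held 48.2% to 52.3% of the signal of the last 30 nt of 18S in BMH-21-treated and 40.0% to 44.7% in vehicle-treated libraries at 2 min. At 16 min the shares were 32.3% to 47.8% in BMH-21-treated and 32.1% to 48.4% in vehicle-treated libraries.

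At the 3′ end of 25S the empty run began 1 nt closer to the end. Position 6646, the last but 1 nt of 25S, held 3656, 3162 and 3758 RPM in BMH-21-treated libraries at 2 min, against 2160, 2210 and 2390 RPM in vehicle-treated libraries (log2 fold change 0.64 ± 0.13, adjusted p = 0.0176 by limma). It was the highest position of the last 30 nt of 25S in both treatments at both times, by the median. In the 16-min libraries it held 4305, 4890 and 4579 RPM in BMH-21-treated libraries, against 4098, 3696 and 4925 RPM in vehicle-treated libraries, and the groups overlapped. Unlike 18S, the 25S end carried comparable signal on the next nucleotide inward. That neighbour, position 6645, was chosen after its values were seen, and held 3848, 2978 and 3513 RPM in BMH-21-treated and 2196, 2252 and 2159 RPM in vehicle-treated libraries at 2 min.

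At the 3′ end of 5.8S the signal lay mostly on positions 3014, 3015 and 3017, with less on position 3016 between them (831, 552 and 695 RPM in BMH-21-treated libraries at 2 min, against 486, 452 and 541 RPM in vehicle-treated libraries). Position 3017, the last with reads, held 4562, 2954 and 3967 RPM in BMH-21-treated libraries at 2 min, against 2023, 2155 and 2583 RPM in vehicle-treated libraries (log2 fold change 0.75 ± 0.20, adjusted p = 0.0335 by limma). Position 3015, the highest of 5.8S at 2 min in both treatments, held 5552, 4275 and 4153 RPM in BMH-21-treated libraries, against 2982, 2947 and 3457 RPM in vehicle-treated libraries (0.57 ± 0.16, adjusted p = 0.0426 by limma). Position 3014 held 3476, 2493 and 2861 RPM in BMH-21-treated libraries, against 1583, 1773 and 2005 RPM in vehicle-treated libraries (0.71 ± 0.17, adjusted p = 0.0261 by limma). None of the 3 higher positions had overlapping groups at 2 min.

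At 16 min those 3 positions no longer parted the treatments. Position 3017 held 2247, 2397 and 2218 RPM in BMH-21-treated libraries, against 2311, 1995 and 2152 RPM in vehicle-treated libraries. Position 3015 held 2193, 2274 and 1978 RPM in BMH-21-treated libraries, against 2103, 1663 and 2053 RPM in vehicle-treated libraries. Position 3014 held 1998, 2436 and 5088 RPM in BMH-21-treated libraries, against 1946, 2080 and 4957 RPM in vehicle-treated libraries. The highest value of each treatment at position 3014 was in the library numbered 3, and the groups overlapped at all 3 positions.

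**Figure D1:**
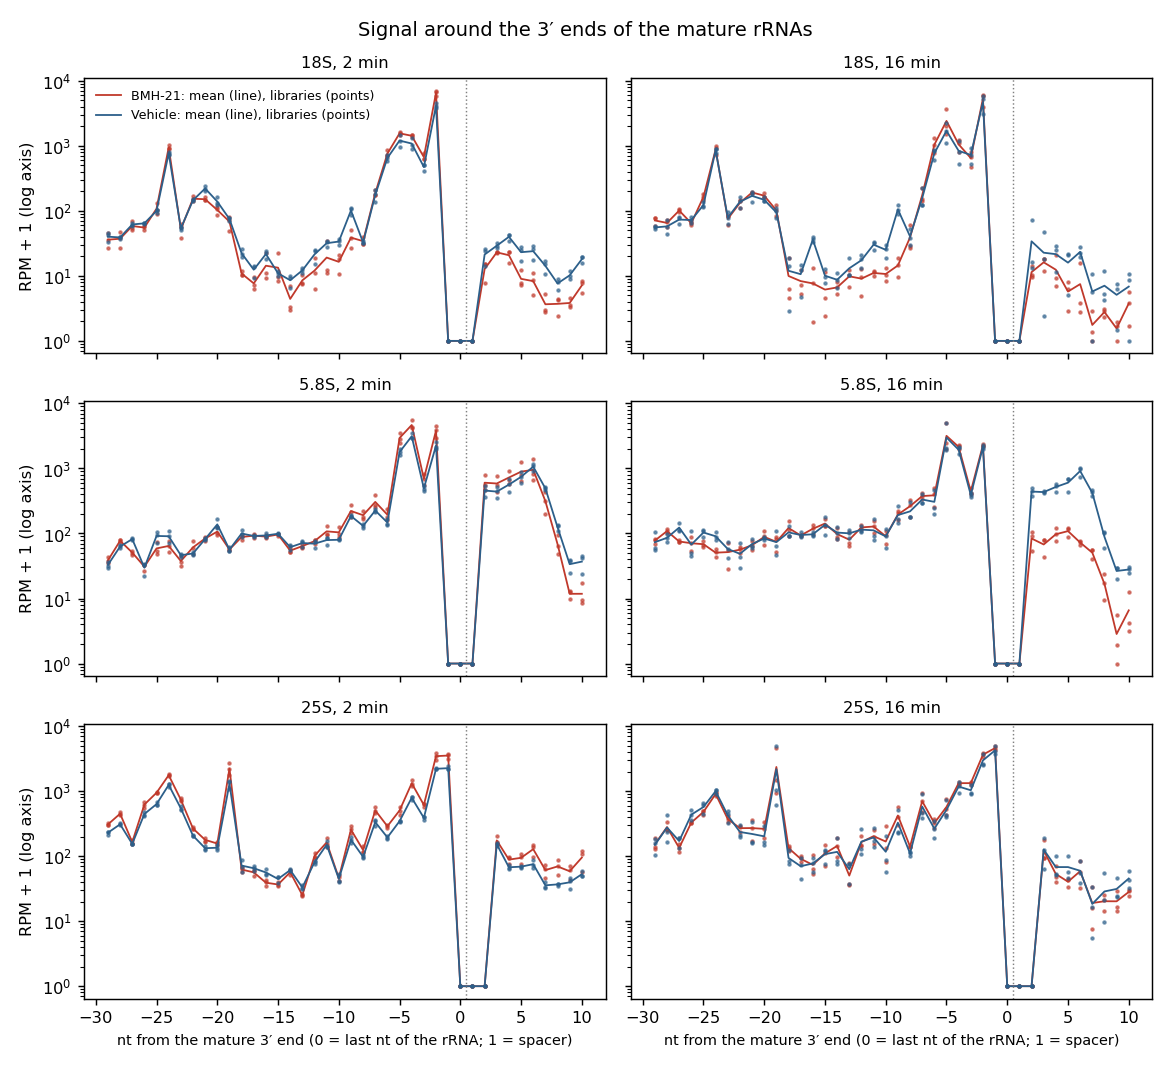
RPM + 1 on a log axis over the last 30 nt of 18S, 5.8S and 25S and the 10 spacer nt beyond, at 2 min and 16 min, with points for the libraries and lines for the group means. At each end 3 neighbouring positions lie at 0 RPM in all 12 libraries, and position 2498 of 18S reaches 5921 to 6983 RPM in BMH-21-treated and 3806 to 4544 RPM in vehicle-treated libraries at 2 min.

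The spacer positions just past the empty run gave a different picture at each end. Past 5.8S, position 3025 in ITS2, the highest of the spacer positions within 10 nt, held 1383, 664 and 817 RPM in BMH-21-treated libraries at 2 min, against 906, 1102 and 1189 RPM in vehicle-treated libraries. At 16 min it held 74.2, 74.5 and 66.4 RPM in BMH-21-treated libraries, against 991, 745 and 1002 RPM in vehicle-treated libraries (log2 fold change -3.64 ± 0.19, adjusted p = 0.000595 by limma). At 2 min its groups overlapped and the difference did not pass (-0.22 ± 0.28, adjusted p = 0.575 by limma). The effects at 16 and 2 min differed by -3.42 on the log2 scale (adjusted p = 0.00725 for the difference, limma over 12 libraries). The 10 spacer nt past 5.8S together changed by 0.04 at 2 min and -2.80 at 16 min. Position 3017 of 5.8S, 8 nt upstream, changed by 0.09 at 16 min.

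Past 25S, position 6650 in ETS2 held 204, 152 and 165 RPM in BMH-21-treated libraries at 2 min, against 157, 154 and 143 RPM in vehicle-treated libraries, and the difference did not pass at either time. The 10 spacer nt past 25S together held 899, 594 and 791 RPM in BMH-21-treated libraries at 2 min. They held 549, 525 and 487 RPM in vehicle-treated libraries. Their mean log2 change was 0.53 at 2 min and -0.25 at 16 min. Limma called positions 6653, 6654 and 6655 among them higher at 2 min. Past 18S, position 2504 in ITS1 held 22.6, 14.5 and 22.2 RPM in BMH-21-treated libraries at 2 min, against 33.1, 42.1 and 41.3 RPM in vehicle-treated libraries (-0.96 ± 0.21, adjusted p = 0.0191 by limma). At 16 min its groups overlapped and the difference did not pass (-0.86 ± 0.51, adjusted p = 0.417 by limma). The spacer side of the 18S end was thus far lower than position 2498, and lower than the spacer side of the 5.8S end in every library at 2 min.

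Over all members, limma with Benjamini-Hochberg adjustment over the gene called 45 of 273 tested members lower (16.5%) and 34 higher (12.5%) in BMH-21-treated libraries at 2 min. Over all 6746 tested positions of the gene it called 23.4% lower and 3.56% higher. The 5 empty members had no value to test. Without adjustment, 68 members were lower and 57 higher at p under 0.05, against 34.0% and 6.66% of the gene's tested positions. At 68 members all BMH-21-treated libraries lay below all vehicle-treated ones and at 76 above them, against 37.7% and 10.3% of all positions. The median log2 fold change was -0.06 over the members and -0.26 over all tested positions. Scaling by median ratio moved the gene's median to -0.03, and with it 26 members were called lower and 54 higher, so that the share of lower calls among called members was 32.5% in place of 57.0%. The adjusted 2-min calls depended on which libraries were kept, over the gene as among the members. Limma called 1580 positions of the gene lower and 240 higher with all libraries of that time. It called 1 lower and 0 higher without vehicle replicate 2, and the same without vehicle replicate 3. Without vehicle replicate 2, as without vehicle replicate 3, 0 members were called in either direction by limma, with 50 lower and 36 higher members at an unadjusted p under 0.05 without replicate 2 and 59 lower and 49 higher without replicate 3. Without vehicle replicate 1, 26 were called lower and 3 higher, and without BMH-21 replicate 3, 30 lower and 1 higher. Of the 17 alternatives run at 2 min, the call at position 3015 was lost in 8, those at positions 2498, 3014, 719 and 6628 in 7 each, that at position 3017 in 6 and that at position 6646 in 5.

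At 2 min lower calls prevailed at the 5′ ends, and higher calls in the last 30 nt of 25S and farther along 5.8S. The last 30 nt of 18S had more lower than higher calls. In the first 30 nt, 17 of 30 positions of 18S, 8 of 30 of 5.8S and 12 of 30 of 25S were called lower and 0 higher. In the last 30 nt, 15 of 29 tested positions of 25S were called higher and 1 lower, 4 of 28 of 5.8S higher and 1 lower, and 1 of 28 of 18S higher and 4 lower. The middle of 5.8S had 14 of 98 positions called higher and 2 lower. The median log2 fold change was -0.94, -0.50 and -0.54 over the first 30 nt of 18S, 5.8S and 25S, and -0.13, 0.10 and 0.43 over their last 30 nt. Under median-ratio scaling the 5′ medians stayed below 0 (-0.71, -0.26 and -0.31), while that of the last 30 nt of 18S turned to 0.10. In the 5076 positions of the interior of 18S and 25S, 11.01% were called lower and 3.94% higher.

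At 16 min far fewer members were called. Limma called 15 of 271 tested members lower and 1 higher, against 11.7% lower and 0.104% higher over all 6707 tested positions. Without adjustment, 31 were lower and 4 higher at p under 0.05, against 19.4% and 2.45% of the gene's tested positions. The libraries did not overlap at 42 members with BMH-21 lower and at 14 with BMH-21 higher, against 20.6% and 6.93% of all positions. Of the lower calls, 7 were in the first 30 nt of 18S, 3 in its last 30 nt, 3 in the first 30 nt of 25S and 2 in 5.8S. The last 30 nt of 25S had 0 calls in either direction, 0 also at an unadjusted p under 0.05 by limma, and edgeR, run on the recovered reads, called 11 members lower and 0 higher in all. Limma called 9 members lower and 0 higher without vehicle replicate 1, without vehicle replicate 3 and without both libraries numbered 3. The median log2 fold change was 0.03 over the members and -0.06 over all tested positions.

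Of the members called lower, 11 were called lower at both times, 24.4% of the 2-min list and 73.3% of the 16-min list. They lay in the first 30 nt of 18S (7), the last 30 nt of 18S (2) and the first 30 nt of 25S (2), and 7 of the 11 had A as the last nucleotide. Over the gene, A made up 32.3% of the positions called lower at 2 min and 35.5% of those at 16 min, against 27.1% and 26.9% of the positions tested. For no member did the difference between the effects at 16 and 2 min pass limma's adjusted threshold, with 58 of 273 members at an unadjusted p under 0.05, 22 of them more positive at 16 min. Over the gene 0.282% of 6743 positions passed with adjustment and 19.1% without. The smallest adjusted p among the members was 0.0763 (limma), at position 713. At 11 members the libraries did not overlap at either time and the direction was opposite, against 2.35% of all positions.

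The 5′ ends held little signal, and in 18S the first 10 nt behaved unlike the 20 nt after them. In the first 10 nt of 18S the libraries summed to 153, 51.2 and 105 RPM with BMH-21 at 2 min, against 440, 451 and 419 RPM with vehicle. At 16 min they summed to 30.0, 7.78 and 36.0 RPM with BMH-21, against 197, 275 and 373 RPM with vehicle. The mean log2 changes were -2.22 at 2 min and -3.74 at 16 min, and all 6 BMH-21-treated libraries lay below all vehicle-treated libraries of their time. Over both times the share of the 35S signal in these 10 nt changed by -2.98 on the log2 scale (two-sided p = 0.005 by exact permutation, the lowest that 400 arrangements can give, and adjusted p = 0.04 over 16 measures).

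Over nt 11 to 30 of 18S, a window set after the values were seen, the sums were 1169, 1721 and 1579 RPM in BMH-21-treated libraries at 2 min, against 2285, 2150 and 1988 RPM in vehicle-treated libraries. At 16 min they were 3134, 2630 and 2265 RPM in BMH-21-treated libraries, against 2870, 2729 and 2351 RPM in vehicle-treated libraries, and the groups overlapped. The mean log2 change was -0.54 at 2 min and 0.01 at 16 min. The 10 spacer nt before 18S changed by -1.71 at 2 min and -3.29 at 16 min, so that the change over the first 10 nt of 18S was nearer to that of the spacer before them than to that of the 20 nt after them.

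Within those 10 nt the signal was concentrated on the second nucleotide. Position 702 held 81.5, 29.4 and 62.3 RPM in BMH-21-treated libraries at 2 min, against 255, 268 and 252 RPM in vehicle-treated libraries (log2 fold change -2.26 ± 0.35, adjusted p = 0.0104 by limma). After 16 min it held 14.8, 3.41 and 13.3 RPM in BMH-21-treated libraries, against 115, 195 and 237 RPM in vehicle-treated libraries (-4.14 ± 0.54, adjusted p = 0.00453 by limma). It was among the 3 most lowered members at both times. Position 701, the first nt of 18S, was near the limit of detection, with 1.31, 0 and 0.853 RPM in BMH-21-treated and 2.52, 3.75 and 1.71 RPM in vehicle-treated libraries at 2 min, and did not pass at either time.

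Positions 706, 708 and 711 of 18S completed the most lowered members. Position 711 held 48.8, 18.3 and 32.4 RPM in BMH-21-treated libraries at 2 min, against 172, 142 and 147 RPM in vehicle-treated libraries (-2.28 ± 0.33, adjusted p = 0.00964 by limma). It changed by -3.35 ± 0.64 at 16 min (adjusted p = 0.0185 by limma), a call lost in 5 of 18 alternatives, among them without vehicle replicate 1 or 3. Position 708 held 18.3, 5.52 and 10.2 RPM in BMH-21-treated libraries at 2 min, against 53.2, 52.5 and 49.2 RPM in vehicle-treated libraries (-2.23 ± 0.36, adjusted p = 0.0104 by limma). Position 706 held 0, 0 and 0.949 RPM in BMH-21-treated libraries at 16 min, against 14.2, 6.43 and 22.3 RPM in vehicle-treated libraries (-3.47 ± 0.48 on the log2(RPM + 1) scale, adjusted p = 0.00542 by limma). None of these positions had overlapping groups at either time.

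Farther in, single positions of 18S departed from this. Position 713, the only member called higher at 16 min, held 54.8, 40.4 and 51.2 RPM in BMH-21-treated libraries, against 27.9, 26.6 and 23.8 RPM in vehicle-treated libraries (0.87 ± 0.19, adjusted p = 0.0287 by limma). At 2 min it was lower, with 18.98, 24.7 and 28.2 RPM in BMH-21-treated libraries, against 75.5, 40.6 and 37.6 RPM in vehicle-treated libraries (-1.01 ± 0.29, adjusted p = 0.0421 by limma). The difference between the times was 1.88 and did not pass (adjusted p = 0.0763, limma over 12 libraries). The call at 16 min was lost in 9 of 18 alternatives and that at 2 min in 10 of 17.

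The highest positions of the first 30 nt of 18S were 719, 724 and 729, by group and time. Position 719, the highest in vehicle-treated libraries at both times, held 120, 182 and 159 RPM in BMH-21-treated libraries at 2 min, against 266, 254 and 261 RPM in vehicle-treated libraries (-0.77 ± 0.18, adjusted p = 0.0220 by limma), and its groups overlapped at 16 min. Positions 724 and 729 were the highest in BMH-21-treated libraries at 2 and 16 min, with log2 fold changes between -0.31 and 0.44, and did not pass at either time. Position 728, chosen after its values were seen, lay beside 729 and yet fell at both times, with 25.2, 16.3 and 17.9 RPM in BMH-21-treated and 67.5, 79.4 and 71.7 RPM in vehicle-treated libraries at 2 min (adjusted p under 0.05 by limma at both times).

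**Figure D2:**
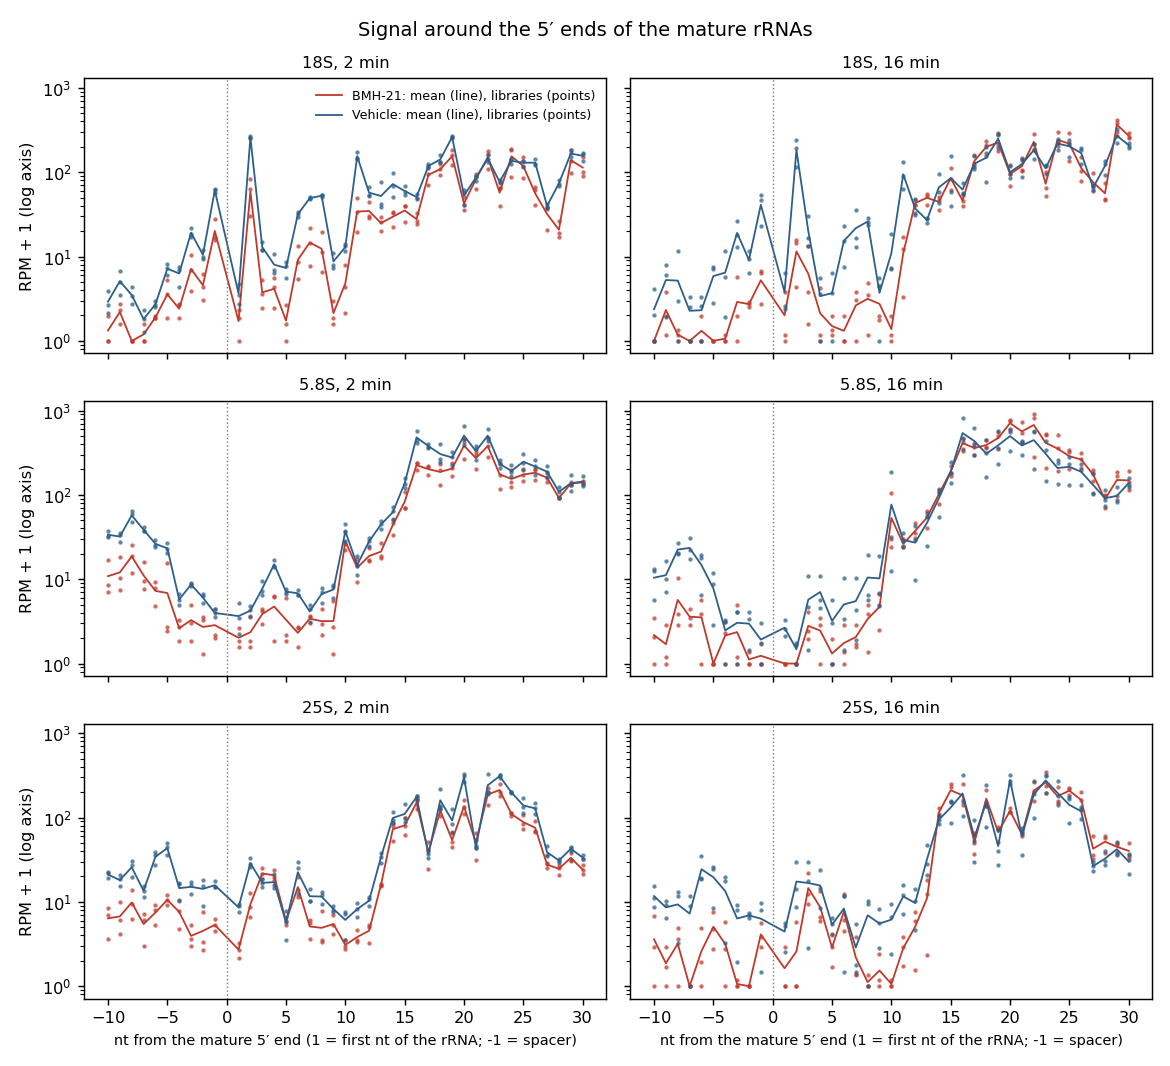
RPM + 1 on a log axis over the 10 spacer nt before and the first 30 nt of 18S, 5.8S and 25S, at 2 min and 16 min, with points for the libraries and lines for the group means. The summed signal of the first 10 nt of each rRNA is below that of the 20 nt after them, and in 18S BMH-21-treated libraries lie below vehicle-treated ones there, as at position 702 with 3.41 to 14.8 RPM against 115 to 237 RPM at 16 min.

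In 5.8S and 25S the first 10 nt also held little signal. In 5.8S they summed to 62.2, 35.8 and 41.8 RPM in BMH-21-treated libraries at 2 min, against 74.6, 103 and 92.2 RPM in vehicle-treated libraries, while nt 11 to 30 summed to 2594, 3776 and 3312 RPM in BMH-21-treated and 5373, 4360 and 3801 RPM in vehicle-treated libraries. At 16 min the 10-nt sums were 35.7, 34.1 and 121 RPM in BMH-21-treated libraries, against 59.2, 56.5 and 238 RPM in vehicle-treated libraries. The highest of each treatment was the library numbered 3, at which position 2871 alone held 105 RPM with BMH-21 and 184 RPM with vehicle, and the groups overlapped. The first nt of 5.8S, position 2862, held 1.64, 0.581 and 0.853 RPM in BMH-21-treated and 1.26, 2.44 and 4.27 RPM in vehicle-treated libraries at 2 min, and did not reach the minimum for a test at 16 min.

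In 25S the first 10 nt summed to 104.0, 68.9 and 78.5 RPM in BMH-21-treated libraries at 2 min, against 104.4, 138 and 139 RPM in vehicle-treated libraries. At 16 min they summed to 20.5, 25.2 and 56.0 RPM in BMH-21-treated libraries, against 89.3, 49.6 and 99.1 RPM in vehicle-treated libraries. The groups did not overlap at 2 min and overlapped at 16 min. Over both times the share in these 10 nt changed by -0.96 on the log2 scale (two-sided p = 0.015 by exact permutation and adjusted p = 0.04 over 16 measures). The mean log2 changes of the summed RPM in these 10 nt were -0.61 at 2 min and -1.31 at 16 min. Over nt 11 to 30 of 25S, a window set after the values were seen, they were -0.57 and 0.08. The first nt of 25S, position 3252, held 2.29, 1.16 and 1.71 RPM in BMH-21-treated libraries at 2 min, against 8.38, 7.87 and 6.54 RPM in vehicle-treated libraries (-1.68 ± 0.19, adjusted p = 0.00734 by limma).

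The highest position in the first 30 nt of 25S was 3274 in both treatments at both times. It held 181, 202 and 249 RPM in BMH-21-treated libraries at 2 min, against 320, 314 and 291 RPM in vehicle-treated libraries (-0.56 ± 0.16, adjusted p = 0.0401 by limma). This call was lost in 11 of 17 alternatives. In the 16-min libraries it held 349, 236 and 194 RPM in BMH-21-treated libraries, against 321, 308 and 194 RPM in vehicle-treated libraries, and the groups overlapped. Position 3271, chosen after its values were seen, was lower at both times, with 128, 114 and 115 RPM in BMH-21-treated and 314, 268 and 249 RPM in vehicle-treated libraries at 16 min.

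Near the 3′ end of 18S, 2 neighbouring positions, also chosen after their values were seen, went down where the end itself went up. Position 2491, 9 nt before the last nt, held 50.4, 26.2 and 36.7 RPM in BMH-21-treated libraries at 2 min, against 83.8, 105 and 111 RPM in vehicle-treated libraries, a log2 fold change of -1.42. By 16 min it held 8.48, 13.8 and 18.02 RPM in BMH-21-treated libraries, against 102, 88.6 and 122 RPM in vehicle-treated libraries, a change of -2.91. Position 2490 beside it changed by -1.09 and -1.24, and limma called both positions lower at both times.

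Summed over each stretch, the treatments were parted at 2 min and overlapped at 16 min. At 2 min the last 30 nt held more of the 35S signal with BMH-21, with 1.30% ± 0.07 in BMH-21-treated and 0.971% ± 0.079 in vehicle-treated libraries for 18S and 1.89% ± 0.15 in BMH-21-treated and 1.27% ± 0.04 in vehicle-treated libraries for 25S (SD, n = 3 each). The first 30 nt held less, with 0.159% ± 0.024 in BMH-21-treated and 0.258% ± 0.016 in vehicle-treated libraries for 18S and 0.157% ± 0.016 in BMH-21-treated and 0.234% ± 0.022 in vehicle-treated libraries for 25S. All of 5.8S held 5.16% ± 0.45 in BMH-21-treated and 4.05% ± 0.22 in vehicle-treated libraries. In each of these 5 stretches the groups did not overlap at 2 min (two-sided p = 0.1 by exact permutation, the lowest possible with 3 libraries a group), and in each they overlapped at 16 min.

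At 16 min the shares were 1.28% ± 0.06 in BMH-21-treated and 1.11% ± 0.17 in vehicle-treated libraries for the last 30 nt of 18S, and 1.99% ± 0.33 in BMH-21-treated and 1.80% ± 0.57 in vehicle-treated libraries for those of 25S. For the first 30 nt of 18S they were 0.270% ± 0.044 in BMH-21-treated and 0.293% ± 0.018 in vehicle-treated libraries, and for those of 25S 0.221% ± 0.035 in BMH-21-treated and 0.217% ± 0.059 in vehicle-treated libraries. All of 5.8S held 4.02% ± 0.15 in BMH-21-treated and 4.00% ± 0.37 in vehicle-treated libraries. Over both times the log2 changes were 0.32 and 0.38 for the last 30 nt of 18S and 25S, -0.42 and -0.26 for their first 30 nt and 0.18 for 5.8S. The exact permutation p-values were 0.015, 0.045, 0.025, 0.16 and 0.05, and after adjustment over 16 measures they were 0.12, 0.133, 0.12, 0.233 and 0.133, so that none of the 5 passed. For the outer 10 nt in place of 30, the 3′ ends changed by 0.39 (18S) and 0.44 (25S), both at an adjusted p of 0.04 by the exact permutation test.

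**Figure D3:**
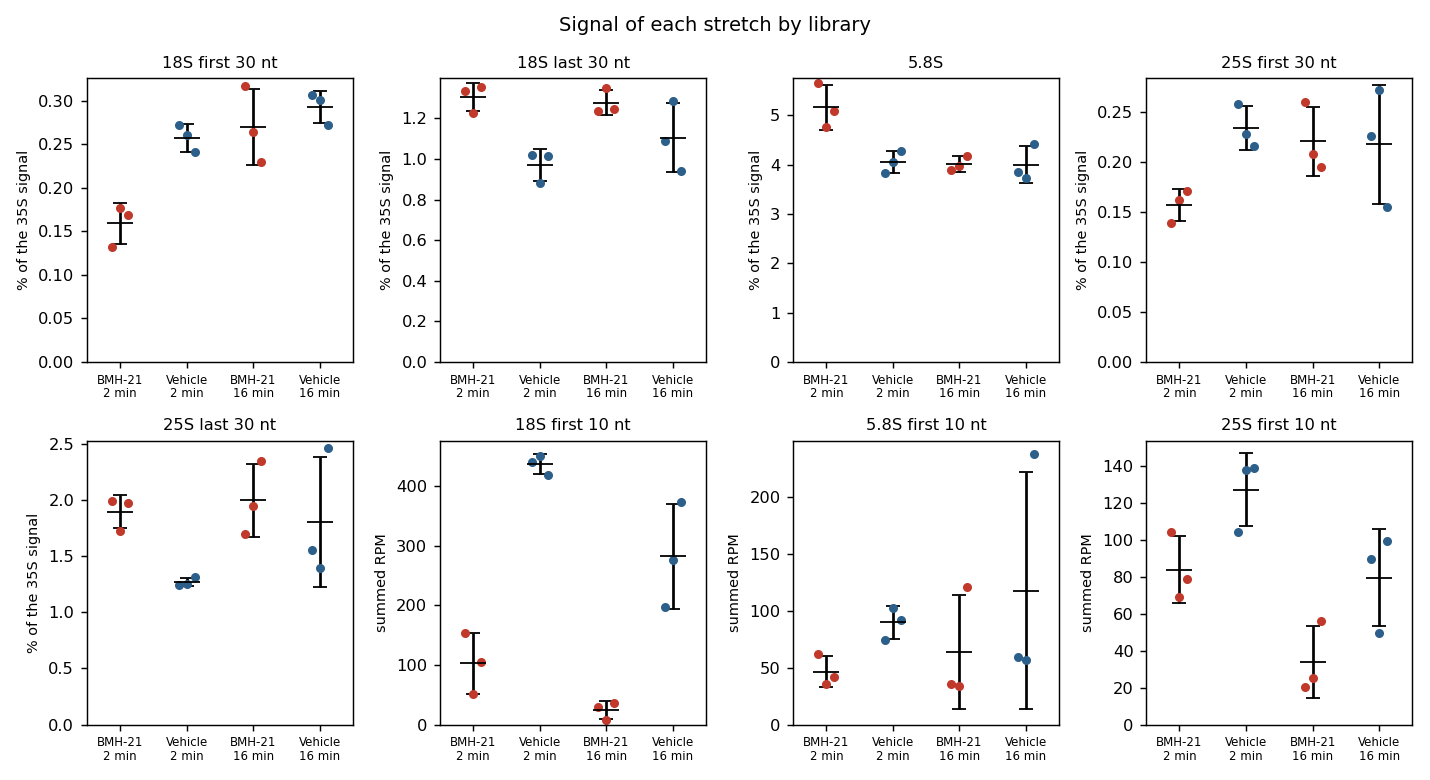
Share of the 35S signal in each of 5 stretches, and summed RPM of the first 10 nt of each rRNA, with a point for each library and bars for the mean and SD (n = 3). At 2 min the groups do not overlap in the 5 stretches, and in the first 10 nt of 18S all BMH-21-treated libraries lie below all vehicle-treated ones at both times, with 7.78 to 36.0 RPM against 197 to 373 RPM at 16 min.

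Set against the interior of the same rRNA, the 3′ ends were dense and the 5′ ends sparse in every group. The mean RPM per nt in the last 30 nt of 18S was 3.22 ± 0.33 times that of the 18S interior in BMH-21-treated and 2.16 ± 0.21 times in vehicle-treated libraries at 2 min (SD, n = 3 each). In the first 30 nt of 18S it was 0.389 ± 0.036 times the interior in BMH-21-treated and 0.572 ± 0.027 times in vehicle-treated libraries. For 25S the ratio was 3.22 ± 0.26 in BMH-21-treated and 2.29 ± 0.07 in vehicle-treated libraries at the 3′ end, and 0.268 ± 0.028 in BMH-21-treated and 0.422 ± 0.037 in vehicle-treated libraries at the 5′ end. For 5.8S the ratio to the interiors of 18S and 25S was 1.87 ± 0.20 in BMH-21-treated and 1.49 ± 0.09 in vehicle-treated libraries. At 16 min the groups overlapped in all 5 ratios, and over both times none of them passed (lowest adjusted p = 0.12, exact permutation test).

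The difference between the 2 times was tested for the 16 measures by permuting time within treatment, which gives an exact p only if time alone moves neither treatment. None passed, with a smallest adjusted p of 0.258 (exact permutation test). The measures in which the effects parted most were the share of 5.8S signal in its first 30 nt, with a difference of 1.13, and the ratio of the first 30 nt of 25S to its interior, with 0.63, both on the log2 scale and more positive at 16 min.

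Along 5.8S the order of positions was close between treatments. Spearman's coefficient across the 158 positions was 0.96 to 0.99 between BMH-21-treated replicates and 0.98 to 0.99 between vehicle-treated replicates at 2 min, and 0.92 to 0.98 between the treatments. At 16 min it was 0.95 to 0.98 between BMH-21-treated and 0.89 to 0.96 between vehicle-treated replicates, and 0.89 to 0.97 between the treatments. Between the times it was 0.83 to 0.92 for BMH-21 and 0.87 to 0.96 for vehicle. These are descriptions across neighbouring positions of the same libraries.

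The 16 capitalised positions, chosen by their mean over the 12 libraries, held 50.0% to 55.2% of the 5.8S signal in BMH-21-treated and 43.6% to 47.3% in vehicle-treated libraries at 2 min. At 16 min they held 40.4% to 50.5% in BMH-21-treated and 39.7% to 52.3% in vehicle-treated libraries. That mean includes the BMH-21-treated libraries at 2 min, so positions high in them were more likely to be chosen. The shares and calls of the 16 are therefore description only. At 2 min limma called 7 of the 16 higher and 0 lower, with a median log2 fold change of 0.54. Over all of 5.8S it called 18 of 156 tested positions higher and 11 lower, and over the gene 3.56% higher and 23.4% lower. At 16 min it called 0 of the 16 in either direction. The 5.8S signal was also spread unevenly over the bases. Positions ending in G are 23.4% of 5.8S and held 11.5% to 12.4% of its signal in BMH-21-treated and 13.7% to 14.8% in vehicle-treated libraries at 2 min, and those ending in U are 27.8% and held 33.2% to 34.2% in BMH-21-treated and 31.1% to 31.8% in vehicle-treated libraries.

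The most raised members at 2 min were 2981 and 3017 of 5.8S and 6628 of 25S. Position 2981, nt 120 of 5.8S, held 207, 189 and 176 RPM in BMH-21-treated libraries at 2 min, against 108, 107 and 111 RPM in vehicle-treated libraries (0.81 ± 0.13, adjusted p = 0.0104 by limma). After 16 min it held 136, 140 and 101 RPM in BMH-21-treated libraries, against 117, 123 and 94.5 RPM in vehicle-treated libraries, and the groups overlapped. Position 6628, nt 3377 of 25S, held 2709, 1761 and 2189 RPM in BMH-21-treated libraries at 2 min, against 1085, 1407 and 1394 RPM in vehicle-treated libraries (0.76 ± 0.20, adjusted p = 0.0328 by limma).

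Within 5.8S the first 30 nt held 6.44% ± 1.66 of its signal in BMH-21-treated and 11.4% ± 2.6 in vehicle-treated libraries at 2 min, and 14.8% ± 4.0 in BMH-21-treated and 12.4% ± 4.5 in vehicle-treated libraries at 16 min (SD, n = 3 each). The groups did not overlap at 2 min and overlapped at 16 min. The last 30 nt held 27.9% ± 2.1 in BMH-21-treated and 24.2% ± 1.0 in vehicle-treated libraries at 2 min. The middle held 57.8% ± 1.0 in BMH-21-treated and 62.0% ± 1.2 in vehicle-treated libraries at 16 min, the only one of the 16 measures whose groups did not overlap at that time. Over both times the first 30 nt changed by -0.27, the middle by -0.03 and the last 30 nt by 0.15, with adjusted p-values of 0.457, 0.293 and 0.196 (exact permutation test).

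**Figure D4:**
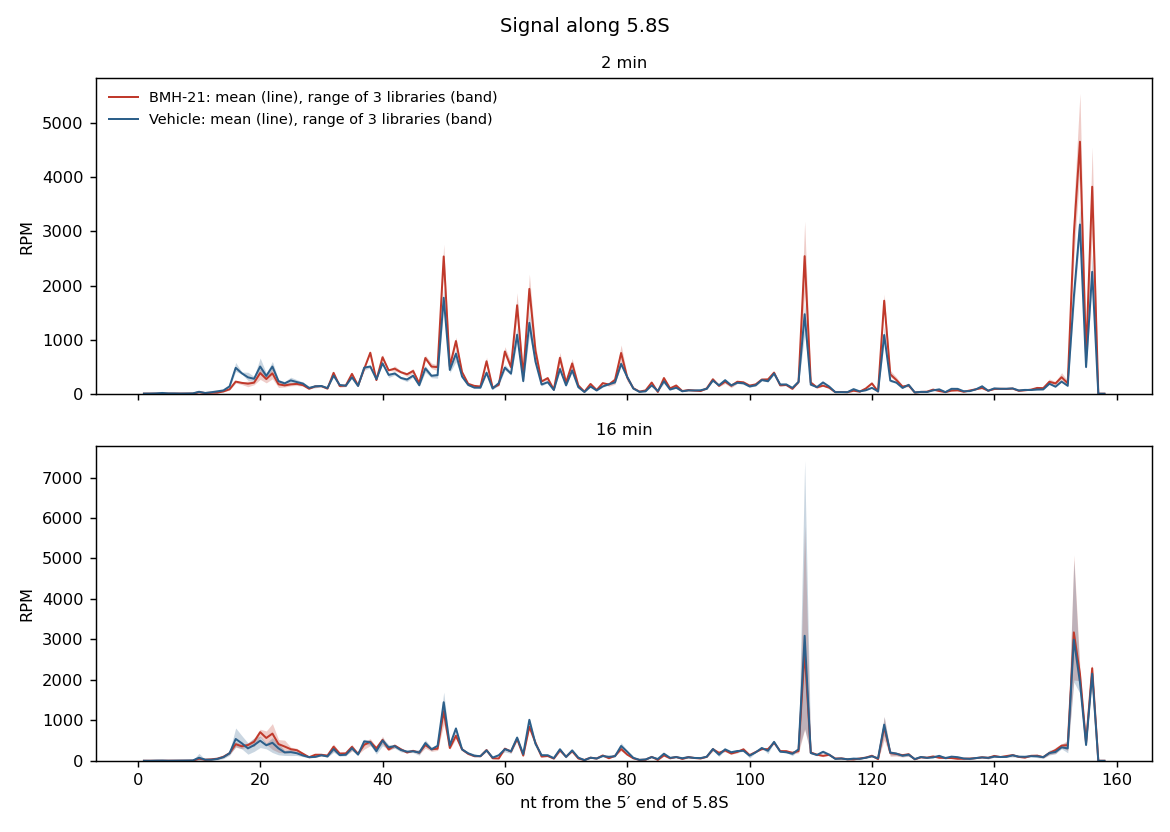
RPM along the 158 nt of 5.8S at 2 min (top) and 16 min (bottom), with lines for group means and bands for the range of the 3 libraries. Position 3015 (nt 154) reaches 4153 to 5552 RPM in BMH-21-treated and 2947 to 3457 RPM in vehicle-treated libraries at 2 min, and the wide band at nt 109 at 16 min comes from the libraries numbered 3.

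The 4 members at which both 16-min libraries numbered 3 stood apart were positions 2871, 2970 and 3014 of 5.8S and 6628 of 25S, a set picked from these values and given with no test. Position 2970 (nt 109 of 5.8S) held 772, 1557 and 5806 RPM in BMH-21-treated libraries at 16 min, against 1054, 794 and 7421 RPM in vehicle-treated libraries. Position 6628 held 936, 1496 and 4622 RPM in BMH-21-treated libraries, against 1040, 622 and 4862 RPM in vehicle-treated libraries. In each case the third library of both treatments was the high one, at a similar level, and the treatments overlapped. The share of the last 30 nt held by the last 5 nt moved with the same libraries. For 18S it was 62.0%, 60.0% and 42.6% in BMH-21-treated libraries at 16 min, against 62.4%, 62.1% and 43.1% in vehicle-treated libraries.

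**Figure D5:**
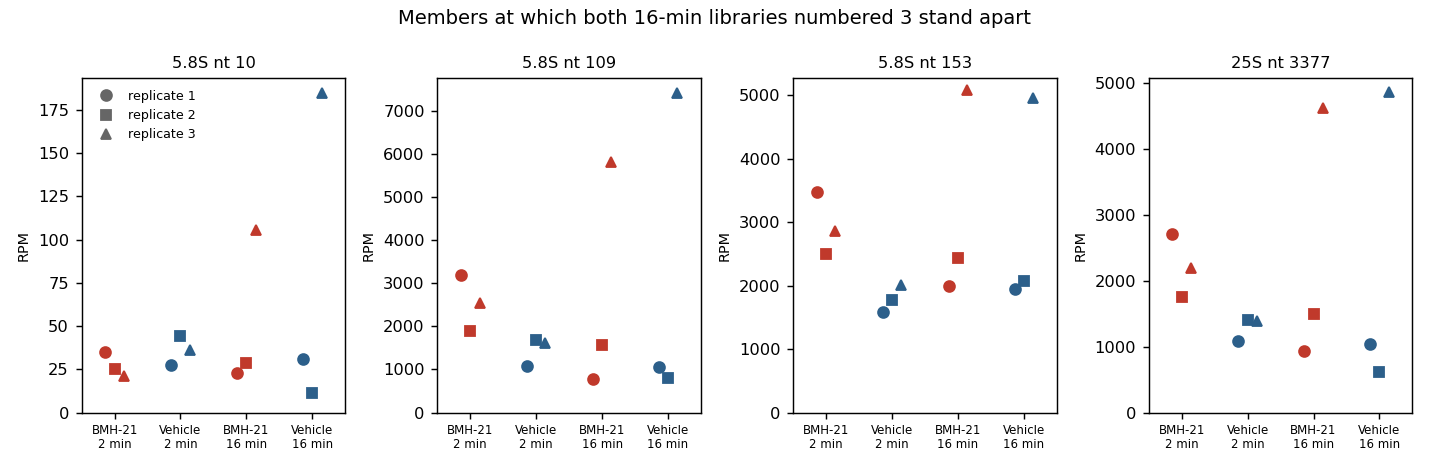
RPM of each library at the 4 members where both 16-min libraries numbered 3 lie more than 2-fold above the other 4 libraries of that time, with symbols for the replicate number and BMH-21 left of vehicle. At nt 109 of 5.8S these libraries hold 5806 RPM with BMH-21 and 7421 RPM with vehicle, while the others hold 772 to 1557 RPM with BMH-21 and 794 to 1054 RPM with vehicle.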

How the data were processed

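Yeast cultures in which Pol I was HA-tagged were treated with BMH-21 or vehicle for 2 or 16 min, 3 libraries each. Per the labels and the study's methods, the authors trimmed the reads with cutadapt 1.12, aligned them with STAR 2.7.1a to R64-1-1 and assigned 5′ read ends, the RNA 3′ ends, to 1 copy of the 35S gene. The authors deposited RPM values, scaled to the read ends of each library on that gene. Merging of reads by the linker's molecular identifier is not stated, and reads are not taken as independent molecules. The deposited means, medians, ratios (fold changes) and p-values by the authors were not used, and 0 columns of other samples were present. Columns named wt and mut were taken as vehicle and BMH-21. The untagged control is not analysed here.

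Dividing by the value of 1 read gave whole reads (within 0.01 read) at 99.9% to 100% of positions. Members and lists were chosen with earlier results of these data known. Positions with a mean of at least 1 RPM were tested with limma 3.58.1 (R 4.3.3) on log2(RPM + 1), which understates changes at low positions, adjusted over the whole gene at a threshold of 0.05. The difference between times was an interaction over 12 libraries. As an alternative, edgeR 4.0.16 was run on the recovered reads, and called 984 positions of the gene lower and 565 higher at 2 min and 536 lower and 49 higher at 16 min. The 16 measures per library (shares of 35S signal, ratios to the interior, parts of 5.8S, share of the last 5 nt) were compared as mean log2 values by exact permutation tests, two-sided, with treatment permuted within time. P-values measure the spread between these libraries, which the series describes as biological triplicates. The limma and edgeR tests within each time were checked on simulated reads with known changes. The permutation test within a time was checked against that of scipy on random values. The interaction over 12 libraries was not checked in these ways. The positions named are the first and last of each rRNA, position 2498, the highest of each stretch by group median, the 3 most lowered and 3 most raised members at each time, the empty positions at the ends, the highest spacer position within 10 nt of each end, and those stated to be chosen after their values were seen. Alternatives covered the pseudocount, the filter, the scaling, the test, the window, leaving out libraries and the replicate block. Python 3.11.15 with numpy 2.4.6, pandas 2.3.3, scipy 1.17.1 and matplotlib 3.10.9 was used for shares and plots.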

Additional observations from a re-analysis of the deposited data

Results flagged for a closer look

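Position 3025 of ITS2, 6 nt past the 3′ end of 5.8S, drew attention because its effects differed between the times, by -3.42 on the log2 scale (adjusted p = 0.00725, limma over 12 libraries). Position 713 of 18S did so because its BMH-21-treated libraries lay below all vehicle-treated libraries at 2 min and above them at 16 min, a difference of 1.88 that did not pass its own test (adjusted p = 0.0763, limma). Such an opposite move without overlap was seen at 11 of the 278 members and at 2.35% of all 6858 positions.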

How the results depend on the processing

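At 2 min leaving out a library gave between 0 and 52 lower and between 0 and 40 higher member calls, with the 0 in both directions reached without vehicle replicate 2 or 3. Lower and higher calls were 26 and 54 with median-ratio scaling, 7 and 11 with the unmoderated linear model, 30 and 73 with edgeR, and 28 and 17 with all 12 libraries in one fit. At 16 min leaving out a library gave 9 to 17 lower and 0 to 1 higher calls. There the lower calls were 8 with a pseudocount of 0.1 RPM, 4 with the unmoderated model, 25 with 12 libraries in one fit and 9 without both libraries numbered 3, and the higher calls were 0 with the unmoderated model, with edgeR and without both libraries numbered 3. The cause was not tested.

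The replicate block gave 26 lower and 1 higher calls at 2 min and 13 lower and 0 higher at 16 min. At 2 min same-numbered libraries correlated in their deviations at -0.36, -0.10 and -0.13, which gave no pairing by number. At 16 min they did so at 0.09, 0.08 and 0.30, and each library correlated best with its own number. For BMH-21 replicate 2 the margin was slight, with 0.0790 for vehicle replicate 2 and 0.0786 for vehicle replicate 1. The labels do not say whether the numbers mark pairs. The main tests did not pair libraries at either time.

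With the outer 10 nt in place of 30, the share of 35S signal in the 5′ end of 18S changed by -2.22 at 2 min, -3.74 at 16 min and -2.98 over both times, and its ratio to the interior by -2.07, -3.73 and -2.90. For the 5′ end of 25S the share changed by -1.31 at 16 min and -0.96 over both times, and the ratio by -1.38 and -1.04. The 3′ ends changed over both times by 0.39 (18S) and 0.44 (25S) as shares and by 0.47 and 0.36 as ratios. With the outer 50 nt, the 2-min changes at the 5′ ends were -0.31 (18S share), 0.079 (25S share), -0.16 (18S ratio) and -0.0041 (25S ratio), and the 25S share over both times turned to 0.016. With the highest position of each stretch left out, the 3′ end of 18S changed at 2 min by 0.23 (share) and 0.38 (ratio), and the share held by the last 5 nt by 0.21 (18S), 0.17 (5.8S) and 0.11 (25S).

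Leaving out 1 library, the shares over both times ranged from -0.48 to -0.35 (18S first 30 nt), 0.27 to 0.38 (18S last 30 nt), 0.14 to 0.22 (5.8S), -0.38 to -0.17 (25S first 30 nt) and 0.30 to 0.50 (25S last 30 nt). The ratios to the interior ranged from -0.39 to -0.28, 0.36 to 0.46, 0.10 to 0.19, -0.45 to -0.26 and 0.21 to 0.42 for the same stretches. The share of 5.8S signal in its last 30 nt ranged from 0.10 to 0.20. The share held by the last 5 nt ranged from -0.015 to 0.16 (18S) and from -0.031 to 0.14 (5.8S). Without vehicle replicate 3 at 16 min, all 5 shares, all 5 ratios and the last 30 nt of 5.8S passed the adjusted threshold by the exact permutation test, as did the share and ratio of the 18S 3′ end without vehicle replicate 2 at 16 min. The difference of means is then over fewer libraries and arrangements.

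Log2 fold changes of the named members kept their sign wherever they were called. Leaving out both 16-min libraries numbered 3, or position 6399 from the scaling and the interior, was chosen after seeing the data. The limit of 3 reads at the sparse 5′ ends lay between 0.286 and 2.85 RPM per library.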
